A study of Mus musculus with 16 samples.

Results

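Integrins are the receptors with which cells hold on to extracellular matrix and to one another, and 10 of their subunit genes were followed through the cells of the liver sinusoid. The members were taken by gene symbol from the count tables, with earlier results of these data known, as Itga1, Itga5, Itga8, Itga9, Itgal, Itgam, Itgav, Itgax, Itgb2 and Itgb3. They are 8 alpha and 2 beta subunits out of 26 integrin subunit genes, and 10 of 47729 gene rows. The study sorted endothelial cells (EC), hepatic stellate cells (HSC), Kupffer cells (KC) and hepatocytes (HC) from mouse liver and sequenced their RNA in 16 libraries, 2 for each cell type and genotype label. The question was what loss of the transcription factor Zeb2 from endothelium does to these cells.

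Animals labelled KO carried a Zeb2 allele with loxP sites around exon 7, the tamoxifen-inducible Cdh5-CreERT2 driver, which is active in endothelium, and an R26R CAG-eGFP reporter. Those labelled WT were littermates without Cre that received tamoxifen as well, so that both groups share the drug, given at 2 mg per day for 5 days. According to the methods, males of 8 weeks were used unless stated otherwise, and cells were taken 2 weeks after tamoxifen. HSCs were gated on their ultraviolet autofluorescence, KCs on F4/80 and ECs on Meca32 among cells without it, while HCs were collected by centrifugation. Only ECs should lose Zeb2 in this model, and the other cell types were compared as neighbours of such ECs.

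An integrin is a pair of 1 alpha and 1 beta chain, and the pair decides what is bound. Alpha chains joined to the widely expressed Itgb1 chain bind collagen, laminin or fibronectin, chains joined to Itgb2 are carried by leukocytes and bind Icam-type receptors and complement, and Itgav pairs with several beta chains that recognise the arginine-glycine-aspartate motif. In liver, ECs sit on a sparse matrix, HSCs are the main matrix-producing cell, and KCs are the resident macrophages.

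Library totals lay between 12872706 and 15690506 reads on genes, so that 3 counts, taken as the floor of detection, correspond to 0.191 to 0.233 CPM (counts scaled to the library total). These limits cover counting error only. Zeb2 itself was not lower in the ECs labelled KO, at 199 and 130 CPM against 106 and 106 CPM in WT, and counts over the whole gene do not single out the floxed exon, so that the genotypes are called by their labels throughout. Of the 10 EC markers, Plvap, which encodes the Meca32 antigen, was higher in HSC libraries, at 6825 to 9616 CPM, than in WT ECs, at 321 and 471 CPM. Ehd3 was also substantial in HSCs, at 1580 to 2124 CPM. The median EC marker in WT HSCs stood at 4.67% and 2.18% of its WT EC mean. Genes enriched in hepatocytes (857 genes) stood at a median of 11.1% and 22.9% of their HC level in WT ECs, against 3.34% and 2.28% in ECs labelled KO. No source ties libraries to separate livers, so that p-values measure the spread between these libraries. In sorted bulk RNA, fewer cells of a type and less RNA per cell cannot be told apart.

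Upstream sequences of 7 members were taken from the RefSeq promoter table on GRCm38.p6, and Itgal, Itgb2 and Itgb3 had no entry matched. They were searched on both strands for GAGGAA, a core recognised by the myeloid factor PU.1, since several members were led by KCs. The letters occurred in the 250 bases before the start of 3 of these genes, Itga5, Itgam and Itgav, and in 23.3% of all 32851 promoters of this length. Those 3 sequences are shown 5′ to 3′ on the gene's strand with each match in capitals, TTCCTC being the match on the opposite strand. They lie at chr15:103366792-103367041 (minus strand), chr7:128062390-128062639 (plus strand) and chr2:83724147-83724396 (plus strand).
Itga5: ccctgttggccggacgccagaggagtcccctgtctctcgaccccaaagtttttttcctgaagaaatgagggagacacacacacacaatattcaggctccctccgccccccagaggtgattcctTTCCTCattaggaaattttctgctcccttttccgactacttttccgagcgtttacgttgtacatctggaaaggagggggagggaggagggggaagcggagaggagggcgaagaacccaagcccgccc
Itgam: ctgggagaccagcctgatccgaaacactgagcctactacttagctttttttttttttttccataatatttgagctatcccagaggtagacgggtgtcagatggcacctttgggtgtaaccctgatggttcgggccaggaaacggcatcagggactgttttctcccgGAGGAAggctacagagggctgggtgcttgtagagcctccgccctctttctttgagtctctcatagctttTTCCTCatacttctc
Itgav: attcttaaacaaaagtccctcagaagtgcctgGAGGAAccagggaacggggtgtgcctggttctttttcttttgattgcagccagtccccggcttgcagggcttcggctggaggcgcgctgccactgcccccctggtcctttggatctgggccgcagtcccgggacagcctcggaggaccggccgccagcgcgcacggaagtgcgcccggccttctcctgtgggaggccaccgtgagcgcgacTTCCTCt
Counted back from the start, the matches began at position -127 in Itga5, at -84 and -15 in Itgam, and at -218 and -7 in Itgav. The letters CCGGAA, a core of the ETS family present in 12.0% of all promoters, were in none of the 7 windows. The Itga9 window, chr9:118711442-118711691 (plus strand), lies inside the gene span given below. It therefore does not show the bases before the start of that span. A match describes the letters and is not evidence of binding.

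The subunits with the largest share differed among the cell types, with overlap between ECs and HSCs. To compare genes, CPM were divided by exon length in kb and given as the share of all alpha or all beta subunits. In WT ECs Itga9 made up 33.5% and 36.6% of alpha subunits and Itga5 34.4% and 22.6%. In WT HSCs the largest alpha share was Itga2b, which is not a member, at 24.5% and 28.5%, followed by Itga9 at 21.2% and 22.6%. WT KCs were led by Itgal, at 58.4% and 66.3% of alpha subunits, and by Itgb2, at 71.4% and 62.0% of beta subunits. Itgb1, the shared beta chain, led the beta subunits of WT ECs (75.1% and 50.1%), HSCs (71.8% and 69.4%) and HCs (72.6% and 71.6%). HCs had few integrin reads, and Itga5 was 62.9% and 62.7% of their alpha subunits.

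**Figure D1:**
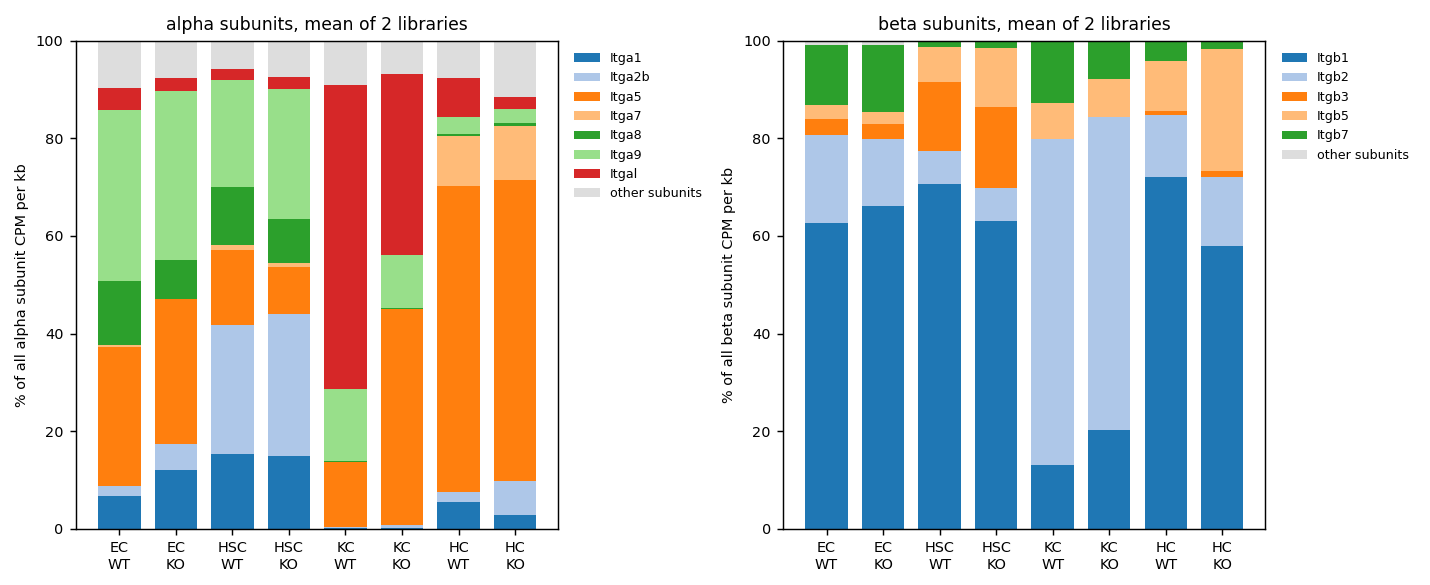
Share of each alpha (left) and beta (right) integrin subunit in the summed CPM per kb of its family, as the mean of 2 libraries for each cell type and genotype label. Subunits that never reach 8% are pooled as other subunits. Itgal and Itgb2 fill most of the WT KC bars, and Itga2b and Itgb3 stand out in HSCs.

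The collagen receptor chain Itga1 (ENSMUSG00000042284, chr13:114953096-115101964, GRCm38) was led by HSCs. WT HSC libraries held 364 and 329 CPM, WT ECs 126 and 123 CPM, WT HCs 12.9 and 8.93 CPM and WT KCs 5.23 and 0.979 CPM. These 4 groups did not overlap. HSCs exceeded KCs by 6.64 ± 0.80 (log2, SE; edgeR adjusted p = 0.0011) and HCs by 3.93 ± 0.70 (adjusted p = 0.0031). The step from ECs to HSCs, -1.75 ± 0.63, did not pass (adjusted p = 0.122). Of its exon bases, 3.68% are shared with another gene model on the same strand.

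Itga5 (ENSMUSG00000000555, chr15:103344286-103366763), the alpha chain of the classical fibronectin receptor, was present in all 4 cell types. Its WT values were 186 and 105 CPM in ECs, 107 and 80.5 CPM in HSCs, 149 and 53.0 CPM in KCs and 45.6 and 23.5 CPM in HCs. The ranges of ECs, HSCs and KCs overlapped, and no pair of WT cell types passed the test, with adjusted p from 0.322 to 0.931.

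Itga8 (ENSMUSG00000026768, chr2:12106632-12301922), which with Itgb1 binds nephronectin and other ligands with the arginine-glycine-aspartate motif, was shared by ECs and HSCs. WT ECs held 115 and 83.2 CPM and WT HSCs 99.1 and 117 CPM, overlapping ranges with a difference of -0.39 ± 0.75 (adjusted p = 0.789). Both stood above WT KCs, at 0.268 and 2.94 CPM, by 5.64 ± 0.94 in ECs (adjusted p = 0.0056) and 6.04 ± 0.96 in HSCs (adjusted p = 0.0037). HCs held 0.765 and 0.0682 CPM. In these WT ECs the 10 HSC markers summed to 1.70% and 2.06% of their WT HSC mean with none at 0. Itga8 stood at 106% and 77.1% of its own WT HSC mean, and how far HSCs in the gate carry this was not tested. An antisense gene overlaps 5.05% of its exon bases.

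Itga9 (ENSMUSG00000039115, chr9:118606690-118901003), a receptor chain for tenascin and for the EIIIA segment of fibronectin, lay in a narrow range across ECs, HSCs and KCs. ECs held 281 and 264 CPM, HSCs 205 and 207 CPM and KCs 169 and 180 CPM in WT. The groups did not overlap, but no pair among them passed, with adjusted p from 0.619 to 0.849. With 2 libraries a group this does not show that the levels are equal. HCs held 1.72 and 3.14 CPM, below ECs by 5.45 ± 0.41 on the log2 scale (adjusted p = 2.5e-04). The fit scales libraries by more than their totals, so this fold is smaller than the ratio of the CPM.

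Itgav (ENSMUSG00000027087, chr2:83724397-83806916) was led by KCs. Its WT levels were 63.8 and 58.0 CPM in KCs, 21.9 and 34.6 CPM in ECs, 26.6 and 23.2 CPM in HSCs and 2.49 and 1.36 CPM in HCs. ECs and HSCs overlapped (adjusted p = 0.893). KCs stood above both, with EC against KC at -1.50 ± 0.37 (adjusted p = 0.027) and HSC against KC at -1.39 ± 0.36 (adjusted p = 0.031). The WT KC values lay above every WT EC and HSC value. The calls were nevertheless lost when certain single libraries were left out, which leaves 1 library in a group. EC against KC missed the threshold without EC WT replicate 34 (adjusted p = 0.120), EC WT replicate 38 (0.056) or KC WT replicate 31 (0.113), and HSC against KC without KC WT replicate 31 (0.131), HSC WT replicate 32 (0.106) or HSC WT replicate 40 (0.168). Among beta chains that can join it, Itgb5 was 127 to 130 CPM in WT KCs and 68.8 to 89.1 CPM in WT HSCs, while Itgb8 was at most 1.48 CPM in any WT library.

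Itgb3 (ENSMUSG00000020689, chr11:104608000-104670476), the beta chain of the vitronectin and platelet fibrinogen receptors, was the member that separated ECs from HSCs. WT HSCs held 233 and 284 CPM, WT ECs 21.7 and 26.8 CPM, WT KCs 1.21 and 1.24 CPM and WT HCs 0.446 and 0.955 CPM. EC against HSC differed by -3.70 ± 0.36 (adjusted p = 9.8e-04) and HSC against KC by 7.62 ± 0.45 (adjusted p = 1.7e-04). Itga2b, its alpha partner on platelets, followed the same order between these cells, with 168 and 185 CPM in WT HSCs against 8.09 and 14.4 CPM in WT ECs (-4.26 ± 0.91, adjusted p = 0.023). This call was lost without EC WT replicate 34 (adjusted p = 0.112), EC WT replicate 38 (0.098), HSC WT replicate 32 (0.057) or HSC WT replicate 40 (0.058). The 7 platelet markers summed to 15.5 and 16.3 CPM in WT HSCs, with 2 of them at 0 in both libraries, to 20.6 and 26.5 CPM in WT ECs and to 43.2 and 35.6 CPM in WT KCs.

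Of the leukocyte chains, Itgal, Itgam and Itgb2 were led by KCs, while WT values of Itgax in KCs spanned those in HSCs. Itgb2 (ENSMUSG00000000290, chr10:77530252-77565708), the beta chain they share, held 981 and 1025 CPM in WT KCs, 44.2 and 93.8 CPM in WT ECs, 74.0 and 54.2 CPM in WT HSCs and 14.0 and 3.89 CPM in WT HCs. KCs stood far above both, with EC against KC at -4.25 ± 0.63 (adjusted p = 0.0033). Itgal (ENSMUSG00000030830, chr7:127296260-127335138), the alpha chain of LFA-1, held 592 and 668 CPM in WT KCs, 23.3 and 34.6 CPM in WT ECs and 27.8 and 8.45 CPM in WT HSCs. Its EC against KC difference was -4.82 ± 0.83 (adjusted p = 0.0064). Kupffer markers, none at 0, summed in WT ECs to 1.53% and 0.968% of their WT KC mean and in WT HSCs to 4.33% and 0.928%. Itgb2 stood at 4.40% and 9.35% of its own KC mean in WT ECs and at 7.38% and 5.40% in WT HSCs, and how far leukocytes in the gates carry this was not tested.

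Itgam (ENSMUSG00000030786, chr7:128062640-128118491), the alpha chain of Mac-1, held only 7.85 and 22.7 CPM in WT KCs. Another row of the tables bears the same symbol, has no read in any library, and covers 68.7% of the Itgam exon bases on the same strand, so that reads there may have been set aside as ambiguous and the level may be understated in every library. WT ECs held 0.768 and 1.32 CPM and WT HSCs 1.47 and 0.448 CPM. Both WT HC libraries held no read. In CPM, scaled to the library total only, the WT KC mean was at least 77.2-fold higher, against a floor of 3 counts per library. KC WT replicate 31 alone was at least 39.7-fold higher. Itgax (ENSMUSG00000030789, chr7:128129547-128150657), the chain of CD11c, was low in all WT libraries, with its highest values, 2.48 and 8.42 CPM, in KCs and 3.78 and 4.22 CPM in HSCs, and no pair of WT cell types passed.

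**Figure D2:**
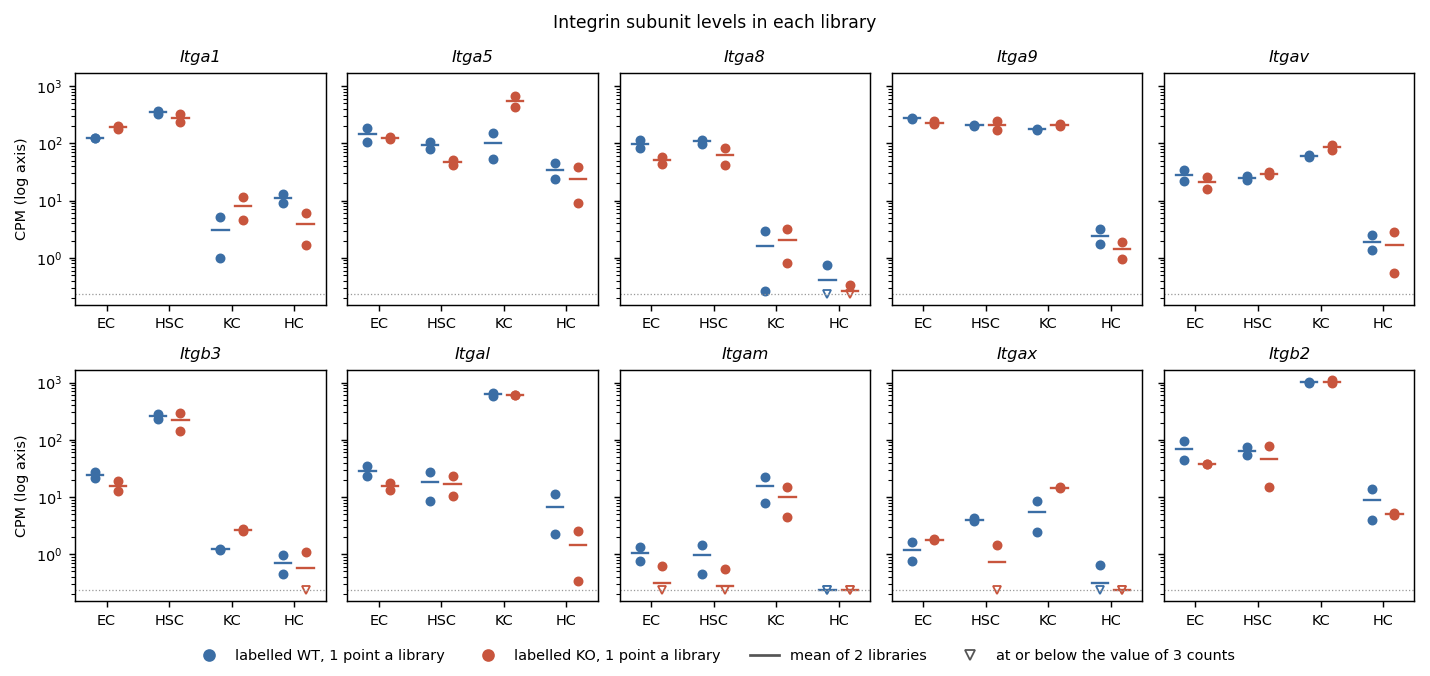
CPM of each member on a log axis for 4 cell types, 1 point for each library, with blue for libraries labelled WT, red for those labelled KO and a bar for the mean of 2 libraries. Open triangles mark libraries at or below the value of 3 counts. Itgb3 is highest in HSCs, Itgal and Itgb2 in KCs, and Itga9 lies in a narrow range across ECs, HSCs and KCs.

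Members that passed were counted for each pair of cell types and are given beside the share of all genes. EC against HSC had the lowest count and the lowest share, but the other pairs did not follow the same order. EC against HSC passed for 1 of 10 members, Itgb3, beside 10.2% of all 15979 genes tested. EC against KC passed for 7 (17.3% of all genes) and HSC against KC for 7 (21.2%), in both cases Itga1, Itga8, Itgal, Itgam, Itgav, Itgb2 and Itgb3. Itgam had only 11 and 17 reads in WT ECs and 23 and 7 in WT HSCs. Like those of Itgav, both its calls were lost when certain single libraries were left out. Between libraries labelled KO, Itgam did not pass with edgeR for EC against KC (adjusted p = 0.118) or HSC against KC (0.108). Against HC, 6 members passed in ECs (43.6% of all genes), 7 in HSCs (41.8%) and 6 in KCs (40.6%). Itga1, Itga9, Itgam and Itgav passed in each, Itga8 and Itgb3 in ECs and HSCs, Itgb2 in HSCs and KCs, and Itgal in KCs. All were lower in HCs except Itga1 in the comparison with KCs, where HCs were higher (KC against HC -2.72 ± 0.68, adjusted p = 0.015). That call was lost without HC WT replicate 29. Calls against HC of Itga1 and Itgam in ECs, and of Itgam and Itgb2 in HSCs, were also lost without certain single libraries. Median log2 differences of the members and of all genes were -0.19 and 0.0024 for EC against HSC, -0.70 and 0.17 for EC against KC, and 3.28 and 0.42 for HSC against HC.

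**Figure D3:**
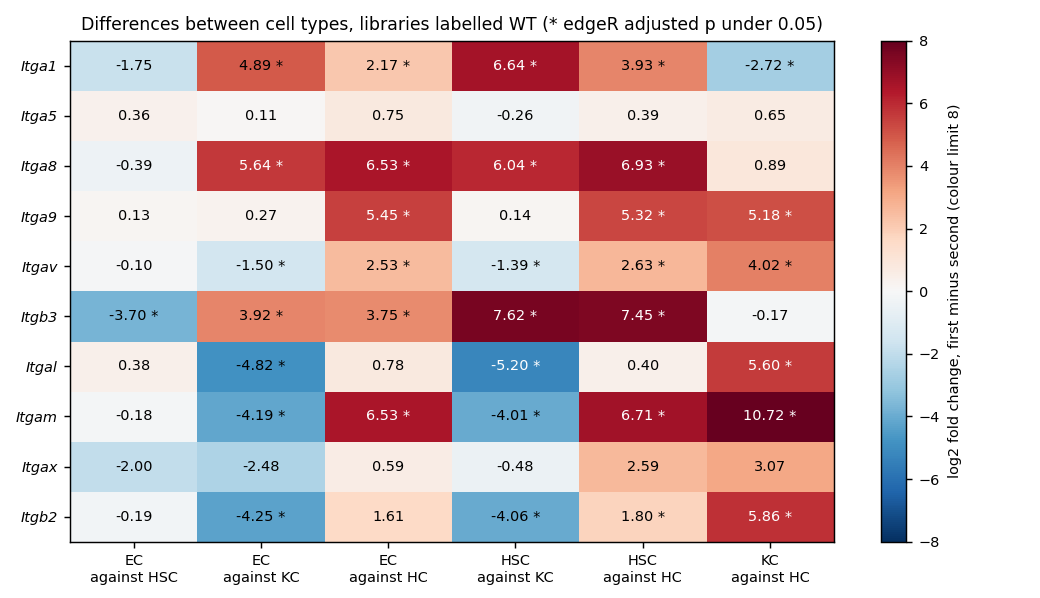
Fitted log2 fold changes between cell types in libraries labelled WT, the first cell type minus the second, with members in rows and pairs in columns. Red is higher in the first, blue is lower, and a star marks an edgeR adjusted p under 0.05. The EC against HSC column holds 1 star, at Itgb3, and fitted values of Itgam against HC depend on the prior count, since HCs held no read.

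The genotype labels were compared next within each cell type. No member passed edgeR's adjusted threshold in any of them. At an unadjusted p under 0.05, ECs held 3 of 10 members tested (15.0% of all genes), HSCs 1 of 9 (8.75%), KCs 1 of 10 (5.09%) and HCs 1 of 7 (7.11%). Over all genes the adjusted threshold was passed by 2.08% in ECs and by 0.0% in HSCs, KCs and HCs. DESeq2 called 1 member in ECs (6.72% of all genes), 1 in HSCs (2.84%), 1 in KCs (0.519%) and 0 in HCs (0.277%). On simulated counts DESeq2 made many more false calls than edgeR with 2 libraries a group, and both exceeded their nominal rate when the spread varied between genes.

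By unadjusted p, Itga5 had the lowest values of any member, in KCs and HSCs, with fold changes of opposite sign. KCs labelled KO held 439 and 677 CPM against 149 and 53.0 CPM in WT, all above the WT libraries, with a log2 fold change of 2.37 ± 0.60 (unadjusted p = 0.0070, edgeR adjusted p = 0.933). Without KC WT replicate 31 the value was 3.46 and without KC WT replicate 39 it was 1.75. HSCs labelled KO held 50.7 and 42.5 CPM against 107 and 80.5 CPM, all below WT, with -1.03 ± 0.24 (unadjusted p = 0.0057, adjusted p = 0.353). These are the 2 calls that DESeq2 made in those cells, with adjusted p = 0.0034 in KCs and 0.037 in HSCs, while over the alternatives tried the adjusted p ran from 1.4e-06 to 0.931 in KCs and from 0.019 to 0.999973 in HSCs. In ECs the Itga5 ranges overlapped, with 120 and 131 CPM in KO. A test of whether the Itga5 difference varies among the 4 cell types gave an unadjusted p of 0.014 and an edgeR adjusted p of 0.264. No member passed that test with edgeR, where 1.17% of 17214 genes did and 10.6% had an unadjusted p under 0.05. DESeq2 called 6.82% of genes and 1 member, Itga5. Markers of other cells moved beside these values, and their part was not tested. In KCs the 7 platelet markers summed to 135 and 59.8 CPM in KO against 43.2 and 35.6 CPM in WT, and the 5 markers of smooth muscle and mesothelium to 74.4 and 29.5 CPM against 16.4 and 8.55 CPM. In HSCs those 5 summed to 122 and 252 CPM in KO against 53.4 and 61.7 CPM in WT, while hepatocyte-enriched genes stood at 0.915% and 1.39% of their HC level against 3.91% and 7.94%. As a share of alpha subunits per kb, Itga5 was 19.6% and 7.01% in WT KCs and 38.8% and 49.8% in those labelled KO, where Itgal was 40.4% and 33.8%.

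In ECs Itga8 was the member nearest the threshold. Libraries labelled KO held 58.3 and 43.8 CPM, both below the WT values of 115 and 83.2 CPM, with -0.97 ± 0.26 (unadjusted p = 0.0085, edgeR adjusted p = 0.156; DESeq2 adjusted p = 0.036; 0.018 to 0.753 over the alternatives). The summed HSC markers moved with it, from 1342 and 1622 CPM in WT ECs to 577 and 847 CPM in KO, where 1 of 10 was at 0. Their part was not tested. In HSCs Itga8 was 84.4 and 41.1 CPM in KO, also below WT, with -0.82 ± 0.34 (adjusted p = 0.578).

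Itgal and Itga1 were the other EC members with an unadjusted p under 0.05. Itgal held 17.6 and 13.1 CPM in KO against 23.3 and 34.6 CPM in WT, with -0.91 ± 0.32 (unadjusted p = 0.027, adjusted p = 0.260). The 10 lymphocyte markers summed to 75.5 and 67.8 CPM in ECs labelled KO against 144 and 266 CPM in WT, with none at 0. The 4 monocyte markers were also lower, at 18.5 and 16.5 CPM against 35.9 and 38.5 CPM. The 10 Kupffer markers went the other way, at 1167 and 1228 CPM in KO against 874 and 554 CPM in WT. So did the 6 dendritic markers, at 237 and 161 CPM against 142 and 155 CPM, with 1 at 0 in KO. Neutrophil markers overlapped between the labels. The part of these cells was not tested. Itgb2 held 37.3 and 37.8 CPM in KO against 44.2 and 93.8 CPM in WT, with -0.87 ± 0.36 (adjusted p = 0.336). Without EC WT replicate 34 the Itgb2 value was -1.28 and passed (adjusted p = 0.038), and without EC WT replicate 38 it was -0.26 (adjusted p = 0.744). Itga1 went the other way, with 177 and 205 CPM in KO against 126 and 123 CPM in WT, a log2 fold change of 0.62 ± 0.22 (unadjusted p = 0.027, adjusted p = 0.264).

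The remaining members gave no unadjusted p under 0.05 in ECs, HSCs or KCs. Itga9 differed by -0.25 ± 0.21 in ECs, 0.01 ± 0.27 in HSCs and 0.21 ± 0.27 in KCs. Itgb3 in HSCs was 144 and 291 CPM in KO, a range that held both WT values. Itgb2 in HSCs labelled KO was 14.9 and 78.6 CPM, and the summed Kupffer markers of these libraries were 568 and 2725 CPM in the same order. Itgax in HSCs was 0.0 and 1.45 CPM in KO, below WT at 3.78 and 4.22 CPM (-2.41 ± 1.56, adjusted p = 0.758). Itgax in KCs was 14.8 and 14.1 CPM in KO, above the WT libraries at 2.48 and 8.42 CPM (1.40 ± 0.62, adjusted p = 0.933). In HCs Itga1 was 6.06 and 1.68 CPM in KO against 12.9 and 8.93 CPM in WT (-1.45 ± 0.59, unadjusted p = 0.050, adjusted p = 0.700).

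**Figure D4:**
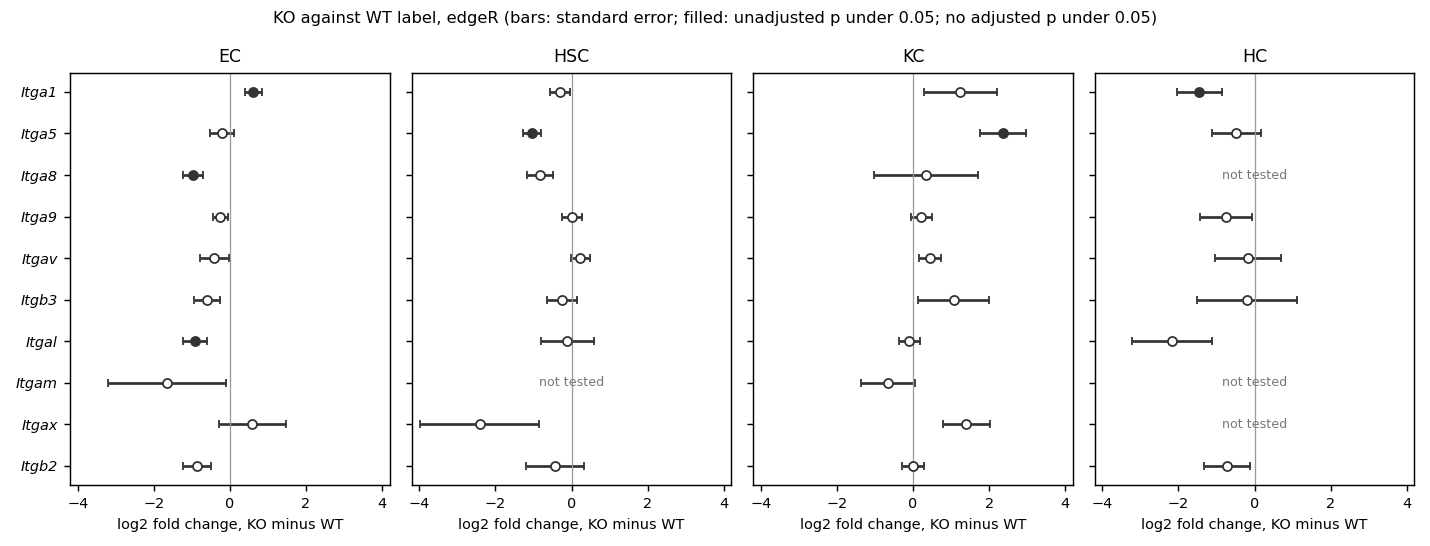
Log2 fold change of libraries labelled KO minus those labelled WT for each member in 4 cell types, with bars for the standard error of the edgeR fit and filled points for an unadjusted p under 0.05. Members removed by the filter on low counts are written as not tested. Itga5 lies at 2.37 in KCs and at -1.03 in HSCs.

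Other genes of the adhesion pathway were read from lists. Among 16 other integrin subunits and 27 activators and adaptors, none passed between the labels with edgeR in any cell type. DESeq2 called 3 of 10 other subunits tested in ECs, Itgae, Itga4 and Itga7 (adjusted p = 0.0043, 0.0058 and 0.0069). Of 26 activators and adaptors tested there it called 2, Syk and Ptk2b (0.0075 and 0.0091), beside 6.72% of all genes. It called none of either list in HSCs, KCs and HCs. These 5 were named after their values were seen. At an unadjusted p under 0.05 the other subunits numbered 4 of 10 tested in ECs and 2 of 12 in HSCs, and none in KCs and HCs. Activators and adaptors numbered 3 of 26, 2 of 26, 2 of 25 and 4 of 21 in ECs, HSCs, KCs and HCs. The shares of all genes were 15.0%, 8.75%, 5.09% and 7.11% in the same order. Of 36 ligand genes, 32 were tested in ECs and 7 passed, beside 2.08% of all genes. All 7 were lower in KO, as were 288 of the 305 genes that passed in ECs. They included the complement component C3 (-3.31 ± 0.47, adjusted p = 0.031), fibronectin Fn1 (-3.01 ± 0.52, adjusted p = 0.045), the fibrinogen chain Fga (-2.99 ± 0.36, adjusted p = 0.029) and vitronectin Vtn (-2.90 ± 0.37, adjusted p = 0.029). All 4 circulate in plasma. Fga, Vtn and C3 are among the hepatocyte-enriched genes of these libraries, while Fn1 was higher in WT HSCs (603 ± 56.2 CPM) than in WT HCs (355 ± 105 CPM). The collagen gene Col3a1, named after its values were seen, also passed (-1.95 ± 0.27, adjusted p = 0.030) and held 1957 ± 523 CPM in WT HSCs against 5.59 ± 3.27 CPM in WT HCs. Hepatocyte-enriched genes and summed HSC markers both stood lower in ECs labelled KO, as given above, and their part was not tested. When the 857 hepatocyte-enriched genes were removed before the fit, edgeR called 0 of 13798 genes in ECs, with 1665 at an unadjusted p under 0.05, and the folds of Fn1 and Col3a1 were -3.06 ± 0.50 (adjusted p = 0.178) and -1.997 ± 0.262 (adjusted p = 0.144). The median of the ligands tested in ECs was -0.65, against -0.01 over all genes. No ligand passed with edgeR in HSCs, KCs or HCs. Ligands with an unadjusted p under 0.05 numbered 15 of 32 in ECs (15.0% of all genes), 3 of them higher in KO. They numbered 9 of 32 in HSCs (8.75%) and 3 of 25 in HCs (7.11%), all lower. In KCs they were 4 of 32 (5.09%), all higher. DESeq2 called 9 ligands in ECs (6.72% of all genes), 5 in HSCs (2.84%), 1 in KCs (0.519%) and 0 in HCs (0.277%).

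The leading ligand and adaptor in each cell type were read from their levels. Per kb, the leading ligand was Fgg in WT HCs (4184 CPM per kb) and WT ECs (644 ± 320, SD, n = 2), the matricellular gene Cyr61 in WT HSCs (1735 ± 44.9) and Icam1, a ligand of the Itgb2 receptors, in WT KCs (278 ± 151). Fgg in ECs moved with the hepatocyte-enriched genes, from 1349 ± 669 CPM in WT to 194 ± 2.31 CPM in KO. The leading activator or adaptor was Cd47 in WT ECs, the kindlin Fermt2 in WT HSCs and HCs, and the leukocyte kindlin Fermt3 in WT KCs, at 109 ± 8.13 CPM per kb.

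Likeness to other genes was described by Pearson's r of log2 CPM over the 16 libraries, which share cell types and depth, so that it mostly follows cell type. The nearest genes were Slc25a36 to Itga9 (r = 0.995), Ncf1 to Itgb2 (r = 0.993), Gltp to Itgav (r = 0.988), Tgfbr3 to Itga8 (r = 0.984), Emilin2 to Itgal (r = 0.984) and Bgn to Itgb3 (r = 0.976). Among the members themselves Itgal and Itgb2 lay closest (r = 0.968). Itgb3 and Itga8 were at r = 0.890, and Itgb3 and Itgb2 at r = 0.053.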

How the data were processed

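RNA of 4 liver cell types was measured in 16 libraries, 2 for each of 8 groups. The authors deposited raw read counts per gene for each library. The submitters' processing notes name Trimmomatic 0.32, HISAT2 2.1.0, HTSeq 0.9.1, edgeR and the build GRCm38, and the strand setting is not given in the sources used here. Series and sample descriptions name different library preparations, Smart-seq2 and a stranded mRNA kit. The 5 summary lines of each table were left out, of which reads aligned to several places were 24.8% to 47.9% of all reads. Gene models were those of the mouse GENCODE release M21, which holds 98.9% of the identifiers. All genes were tested with edgeR 4.0.16 in R 4.3.3 (filterByExpr, TMM, quasi-likelihood test), within a cell type for genotype labels and over the 8 WT libraries for cell types. A Benjamini-Hochberg adjusted p under 0.05 was the threshold, and SE is the log2 fold change divided by the root of F. CPM are scaled to library totals only, while fitted folds also carry the TMM factors. The 2 therefore differ, most in comparisons with HCs. For Itga1 in EC against HC, the ratio of mean CPM was 11.4 and the fitted log2 fold change 2.17. Alternatives were DESeq2 1.42.0, other size factors, no filter, leaving out each library, other sets of libraries and removal of 857 hepatocyte-enriched genes. Both tools were tested on simulated counts. Members, lists and tests were chosen with earlier results of these data known. All members were named, with Itgb1, Itgb5 and Itgb8, the listed genes that passed (at most 4 a list), each list's highest gene per cell type and the genes most like each member. Itga2b and the marker genes named were chosen after their values were seen.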

Additional observations from a re-analysis of the deposited data

How the results depend on the processing

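With 2 libraries a group, calls between the labels depended on the tool and the filter. Without the filter on low counts 1 member passed between the labels in each cell type. These were Itga8 in ECs, Itga5 in HSCs and KCs, and Itgal in HCs. Over all genes this setting called 1259 of 23953 in ECs and 663 of 24592 in HSCs. In KCs it called 159 of 22595 and in HCs 227 of 19933. With DESeq2 1 member passed in ECs, 1 in HSCs and 1 in KCs (6.72%, 2.84% and 0.519% of all genes), against 0 with edgeR. Leaving out each library gave 0 to 1 members in ECs and 1 to 2 for EC against HSC, where Itga1 joined Itgb3 without either KC WT replicate. The same gave 5 to 7 members for EC against KC, HSC against KC and HSC against HC, and 4 to 6 for EC against HC. EC against HSC gave 2 members without the filter (3252 of 27273 genes) and 2 with DESeq2 (2970 of 15979 genes). For differences among cell types in the label effect, 3 members passed without the filter (Itga1, Itga5, Itgal), beside 1776 of 29481 genes. With DESeq2 1 member passed, beside 1174 of 17214 genes. Between the libraries labelled KO in place of WT, Itga5 was -2.46 for EC against KC (adjusted p = 0.026), reversed from 0.11, and Itga1 was 0.19 for KC against HC (adjusted p = 0.822), reversed from -2.72. The cause was not tested in any of these. Other size factors moved the median of all genes by more than 0.1 for KC against HC only, from 0.10 to 0.25 on the log2 scale, with no change of sign in a member. No paired analysis was possible because the groups share no replicate numbers. Depth leaves Itgam, Itgax and Itga8 in HCs near the floor.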
